A study of Mus musculus with 2 samples.

Results

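The genes described here are the cytoplasmic ribosomal protein genes of the mouse. They were taken from the gene symbols of 2 single-cell RNA-seq libraries: every symbol made of Rpl or Rps and a number, with an optional a, x or l ending, together with Rplp0, Rplp1, Rplp2 and Rpsa. This rule gave 84 of the 32285 genes in the matrices. Of these, 43 encode proteins of the large subunit, 31 proteins of the small subunit and 3 the P stalk, and 7 are paralogs whose symbol is that of another member with an l or l1 added (Rpl10l, Rpl22l1, Rpl36al, Rpl39l, Rpl3l, Rpl7l1 and Rps27l). A further 17 symbols that start with Rpl or Rps, among them the S6 kinases and pseudogenes, fell outside the rule.

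Both libraries came from dorsal meninges of male C57BL/6 mice (wild-type C57BL/6J in the methods), aged 10 weeks by the sample description, with a separate label that gives a range from that age upward. The Sham library pooled the meninges of 5 mice 1 week after a sham procedure, and the TBI library pooled those of 5 mice 1 week after a mild closed-skull injury that struck the right inferior temporal lobe once. Live singlets were sorted before capture, and each library counted unique molecular identifiers (UMIs), one per captured messenger RNA molecule, read from the 3′ end. With 1 library per group there was no replicate and no test between Sham and TBI, and all intervals below cover counting error only.

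A ribosome consists of a small subunit, which reads the messenger RNA, and a large subunit, which forms the peptide bonds. Each ribosome carries most of its proteins in single copy, so the members are produced in near-equal amounts at the protein level, and their messenger RNAs are among the most abundant in growing and in resting cells. Many of these messenger RNAs begin with a run of pyrimidines, the terminal oligopyrimidine tract, through which the mTOR pathway controls their translation as a group. Rplp0, Rplp1 and Rplp2 form the stalk that recruits translation factors, Rps27a is made as a fusion with ubiquitin, and Rpsa is also known as the laminin receptor precursor.

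After removal of barcodes with under 150 or over 5000 detected genes, over 20% mitochondrial or over 5% hemoglobin UMIs, 2043 Sham and 3773 TBI cells were kept, with 7866611 and 13940740 UMIs. The median cell had 2764 UMIs in Sham and 2663 in TBI. Cells were grouped into 27 clusters without the use of the member genes, and 23 of these clusters received 19 names from at least 3 marker genes each, written below as T-like, B-like and so on. The T-like, ILC2 or Th2-like and gamma-delta or Th17-like clusters were joined, which left 17 classes. The 4 unnamed clusters entered no class. Besides meningeal cell types, 60 Sham and 134 TBI cells carried markers of choroid plexus and 36 and 99 carried markers of the pineal gland. Among the kept cells, 14 barcode sequences occurred in both libraries, and without them the share of ribosomal protein UMIs in endothelial-like cells was 8.33% in Sham and 10.3% in TBI, the same as with them at this precision.

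Ribosomal protein genes gave 18.9% of all UMIs of kept Sham cells (1485398 UMIs) and 15.8% of those of kept TBI cells (2195794 UMIs). Most of this gap moved with the kinds of cells in the 2 libraries. Fibroblast-like cells, which had a low share, gave 3.40% of the Sham UMIs and 11.8% of the TBI UMIs, while B-like cells, which had a high share, gave 14.5% and 5.87%. The unnamed clusters together gave 3.61% and 6.96%, and the largest of them had the lowest ribosomal protein share of any cluster. When the Sham share of every class was weighted by the make-up of the TBI library, the total came to 16.0%, and the TBI shares weighted by the make-up of the Sham library gave 18.7%. Each library, given the other's make-up, thus came within 0.3 points of the other's total.

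The share differed far more between cell classes than between libraries, as the plot of shares by class shows. T-like cells had the highest share, 27.4% in Sham (265 cells) and 26.9% in TBI (380 cells), followed by dendritic-like cells with 25.3% and 25.3%. Neutrophil-like cells had the lowest, 3.04% (16 cells) and 3.15% (26 cells). The highest class exceeded the lowest 9.03-fold in Sham and 8.57-fold in TBI. Lymphoid and dendritic cells occupied the top of the order. B-like cells had 22.4% and 22.5%, immature B-like cells 21.3% and 19.9%, NK-like cells 20.7% and 21.1%, and plasmacytoid dendritic-like cells 22.9% and 20.2%. Cells of the vessel wall, connective tissue and nerve sheath occupied the bottom. Endothelial-like cells had 8.33% and 10.3%, fibroblast-like cells 6.05% and 6.79%, pericyte-like cells 6.04% and 5.27%, and Schwann-like cells 5.40% and 5.84%. Under the coarser clustering the fibroblast-like class held 132 Sham and 776 TBI cells in place of 66 and 453. Its shares were then 5.40% and 5.64%. The unnamed cluster led by Snhg11 and Foxp2 (54 and 306 cells), with the lowest share of any cluster, entered no class here. Whether its cells were those that joined the larger fibroblast-like class was not tested. The larger endothelial-like class of the coarser clustering had 8.75% and 10.4%. Macrophage-like cells lay between these groups with 16.3% and 15.7%. The Spearman correlation of the 17 class shares between the libraries was 0.97, a description only, since classes within a library share its processing.

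**Figure D1:**
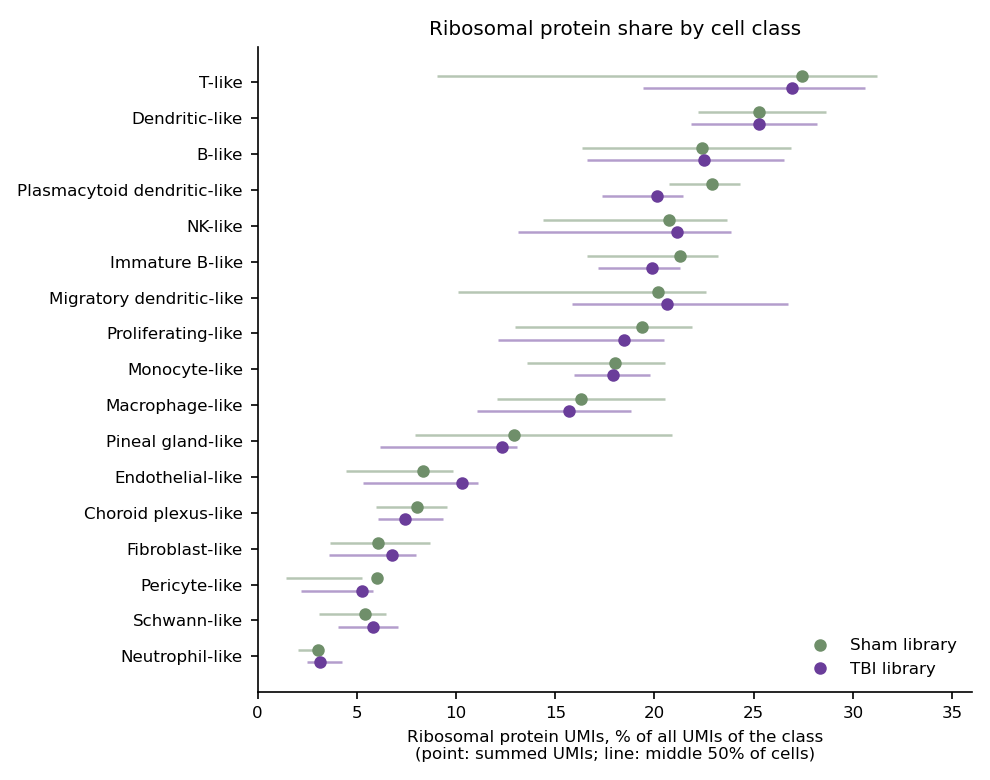
Ribosomal protein UMIs as a percentage of all UMIs of each cell class (horizontal axis), for the Sham and the TBI library; points give the summed UMIs of the class and lines the middle 50% of its cells. The 17 classes run from 3.04% in neutrophil-like to 27.4% in T-like Sham cells, and the 2 points of a class lie close together next to that range.

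Neighbours in this order could not be separated by the spread of their cells. The middle 50% of T-like cells ran from 9.05% to 31.2% in Sham and from 19.4% to 30.6% in TBI, which spans the summed shares of the dendritic-like, B-like and NK-like cells. Within the T-like cells, the cells with ILC2 or Th2 markers had 28.5% and 29.0%, the T-like cluster itself 27.4% and 26.7%, and the cells with gamma-delta or Th17 markers 21.3% and 21.4%. Small-subunit genes gave 45.1% of the ribosomal protein UMIs of T-like cells in Sham and 45.1% in TBI. They gave 39.1% and 38.7% in choroid plexus-like cells, and 39.9% and 40.7% in fibroblast-like cells, so the balance between subunits was lower in these classes than in lymphocytes.

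The ribosomal protein share moved with the share of nuclear RNA in a cell. Malat1 and Neat1, both long RNAs retained in the nucleus, were summed for each cell as a measure of nuclear RNA. T-like cells with under 1% of these RNAs had a ribosomal protein share of 29.7% in Sham and 28.2% in TBI. Those with 1% to under 3% had 17.6% and 17.5%, and those with at least 3% had 4.41% and 6.47%. The same descending order held in B-like cells, from 23.8% in both libraries through 18.6% and 18.3% to 4.39% and 6.23%. In endothelial-like cells the shares were 9.99% and 12.2% under 1%, 7.18% and 8.21% between, and 4.28% and 3.65% at 3% or more. Shallow T-like cells, with under 1000 UMIs, had 7.11% and 9.02%, against 29.7% and 28.5% in those with at least 3000. Macrophage-like cells did not follow this order with depth, with 19.7% and 15.9% under 1000 UMIs and 16.2% and 15.8% at 3000 or more. Fibroblast-like cells had 9.70% and 6.38% under 1000 UMIs, and 6.00% and 7.32% at 3000 or more. Dendritic-like cells had 29.8% (8 cells) and 12.2% (11 cells) under 1000, and 25.2% and 25.4% at 3000 or more. In both, shallow cells had the higher share in Sham and the lower in TBI. B-like and endothelial-like cells followed the order of T-like cells in both libraries. The largest unnamed cluster, led by Snhg11 and Foxp2, had the lowest share of any cluster, 1.36% in Sham (54 cells) and 1.96% in TBI (306 cells), together with a median of 11.8% and 8.04% of Malat1 and Neat1. What part nuclear RNA has in these shares was not tested. Barcodes that only the hemoglobin limit removed had a share of 3.20% in Sham (289 barcodes) and 4.58% in TBI (174 barcodes).

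**Figure D2:**
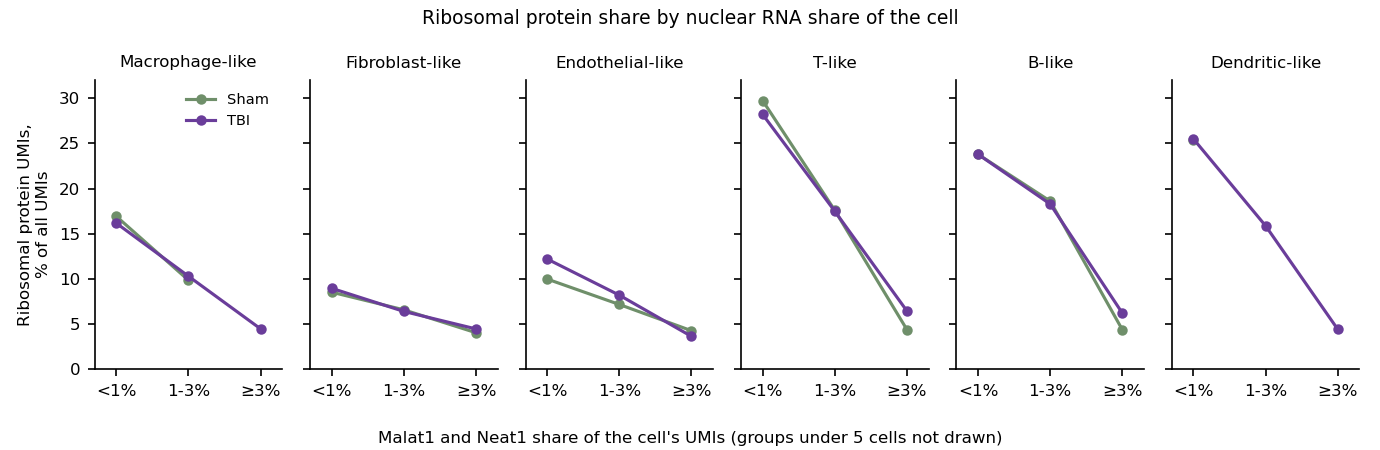
Ribosomal protein UMIs as a percentage of all UMIs (vertical axis) in cells of the 6 main classes grouped by their Malat1 and Neat1 share (horizontal axis), for Sham and TBI; groups with under 5 cells are not drawn. In T-like cells the share descends from 29.7% and 28.2% to 4.41% and 6.47%, and the drawn points descend in the same order in the other panels.

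Between Sham and TBI, the class shares were higher in TBI in 7 classes and lower in 10. The counting interval of the ratio left out 0 on the log2 scale in 5 of the former and 8 of the latter, which says only that these 2 libraries differed. On the log2 scale the largest difference among the 17 classes was in endothelial-like cells, 0.31, where the TBI share exceeded the Sham share by 2.00 percentage points (interval 1.90 to 2.09). In percentage points it was in plasmacytoid dendritic-like cells, at -2.74 points (-3.0 to -2.5), or -0.18 on the log2 scale. In fibroblast-like cells it was higher by 0.74 points (0.64 to 0.84), and by 0.24 points in the larger fibroblast-like class of the coarser clustering. In macrophage-like cells the difference, TBI minus Sham, was -0.60 points (-0.67 to -0.53), and in T-like cells -0.47 points (-0.59 to -0.35). B-like cells, at 0.13 points (0.0081 to 0.25), and dendritic-like cells, at -0.011 points (-0.11 to 0.088), differed least among the 6 main classes. The interval of the log2 ratio, used for the counts of classes above, included 0 in both. In B-like cells the interval in points narrowly left out 0. The fibroblast-like and T-like differences depended on how cells were averaged. With every cell weighted equally, fibroblast-like cells had 6.48% in Sham and 6.11% in TBI, the opposite direction, and T-like cells had 21.9% and 23.9%, also the opposite. The endothelial-like difference kept its direction, with 7.46% and 8.95%. In B-like cells the sign was the opposite with predicted doublets left out, at -0.093 points.

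Endothelial cells line the vessels, and their meningeal forms regulate what enters the tissue. Of the 76 members with at least 500 UMIs in endothelial-like cells, 36 had a log2 ratio of at least 0.3 in favour of TBI and 0 had one of -0.3 or lower. Over all 441 genes with that many UMIs in these cells, 19.3% passed 0.3 and 6.12% passed -0.3. The members are among the 441, and of the 365 other genes 13.4% passed 0.3. The median log2 ratio was 0.28 over the members and 0.08 over all tested genes. The shift involved both subunits, since 22 of the 36 genes encode large-subunit proteins, 13 small-subunit proteins and 1, Rplp0, the P stalk.

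The member with the largest ratio in endothelial-like cells was Rps3a1, a small-subunit protein near the messenger RNA exit. It had 590 UMIs in Sham and 1853 in TBI, or 1217 and 1774 CPM, the UMIs of a gene scaled to a common total for the class, a log2 ratio of 0.54 (0.41 to 0.68). Rps7 followed with 1048 and 1515 CPM, a log2 ratio of 0.53 (0.39 to 0.68), and the large-subunit gene Rpl8 with 792 and 1144 CPM, also 0.53 (0.36 to 0.70). These 3 genes stood at the upper end of a continuous spread. At the lower end, Rps25 had 433 and 416 CPM, a log2 ratio of -0.06 (-0.30 to 0.19), Rpl23a 0.06 (-0.21 to 0.34) and Rps6, the substrate of the S6 kinases, 0.07 (-0.14 to 0.29). All 3 intervals included 0. Rps25 was the member with a ratio below 0 among the 76. Relative to the sum of the members, the genes kept nearly the same proportions: with the ratio scaled to ribosomal protein UMIs, 0 members passed 0.3 and 1 passed -0.3. This scaling takes the log2 ratio of the shares, 0.31, off every gene alike. The median of all tested genes, then -0.23, moved by that amount and is no separate result. With this scaling, 2.72% of all 441 tested genes passed 0.3 and 38.8% passed -0.3.

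**Figure D3:**
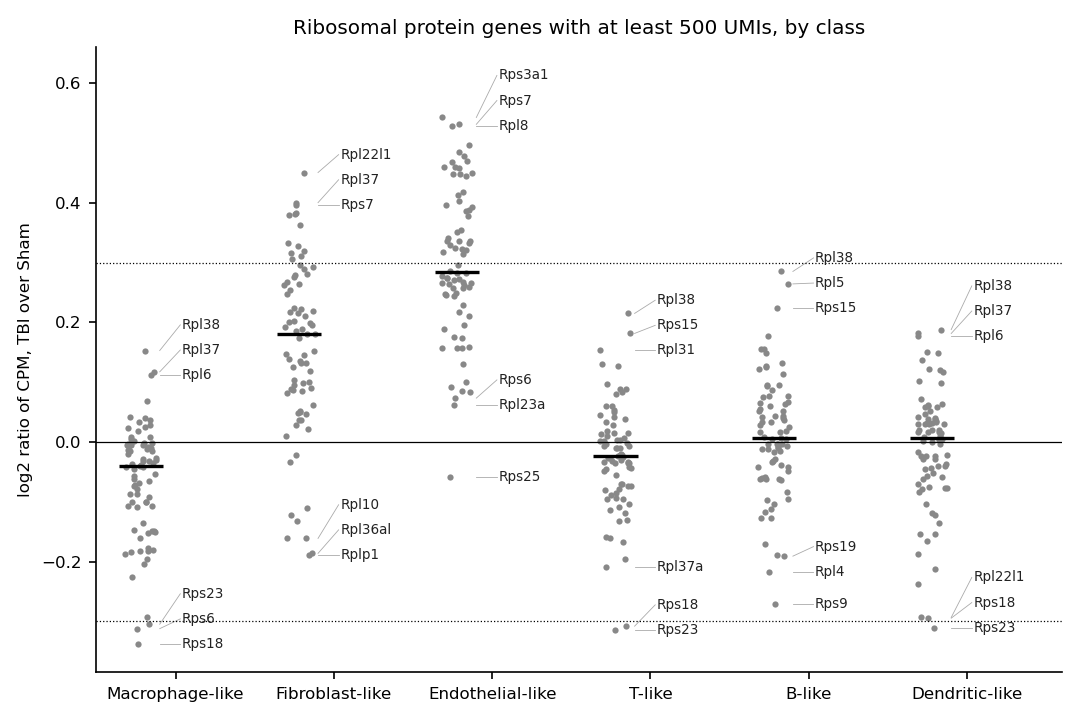
The log2 ratio of CPM, TBI over Sham (vertical axis), of each ribosomal protein gene with at least 500 UMIs in the 6 main classes; each point is a gene, thick lines are medians, dotted lines mark 0.3 and -0.3, and the 3 highest and 3 lowest genes of a class are named. The medians are 0.28 in endothelial-like, 0.18 in fibroblast-like and between -0.04 and 0.01 in the 4 immune classes.

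Both clusters named endothelial-like had a higher share in TBI, by different amounts. A cluster led by Sema3g, Gja5 and Stmn2 (50 Sham and 91 TBI cells) had only 2 endothelial markers. So did a cluster led by Slc38a5, Slco1a4 and Cldn5 (13 and 41 cells). Under the minimum of 3 markers, these clusters were left unnamed and entered no class. The cluster led by Gpihbp1, Igfbp3 and Kdr had 8.0% in Sham (191 cells) and 9.21% in TBI (306 cells), and 13 of its 69 tested members passed 0.3, with a median log2 ratio of 0.19. In this cluster 11% of all tested genes passed 0.3. The cluster led by Vwf, Slco2a1 and Lrg1 had 9.38% (54 cells) and 12.4% (141 cells), and 42 of its 59 tested members passed 0.3, with a median of 0.45. There, 61.5% of the 122 tested genes passed 0.3 as well. The 59 members are among these 122, so this background was not independent of them. More genes passed than there were members, so genes outside the members passed 0.3 in this cluster as well. Nuclear RNA moved the opposite way, with a median of 2.34% Malat1 and Neat1 in Sham and 1.23% in TBI in the Vwf cluster, and 1.06% and 0.819% in the Gpihbp1 cluster, and its part in the difference was not tested beyond the cells with under 1% described above. Summed, the immune marker genes moved in the same direction as the members in endothelial-like cells. The 126 genes of the immune marker lists together gave 0.069% of the UMIs of these cells in Sham and 0.162% in TBI. Of these genes 79 were higher and 15 lower in TBI. At 0 were 81 of them in Sham and 35 in TBI, and a gene seen only in TBI counts as higher. All 18 macrophage markers were higher in TBI, as were 12 of 13 B cell markers. Of 10 T cell markers, 4 were higher and 5 lower. The pan-leukocyte gene Ptprc had 5 and 25 UMIs. In endothelial-like cells with under 0.1% of such UMIs, the ribosomal protein share was 8.30% in Sham (177 cells) and 10.0% in TBI (261 cells), and 26 of 70 tested members passed 0.3. Over all 263 tested genes in those cells, 18.3% passed 0.3 and 4.94% passed -0.3.

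Other messenger RNAs of the translation machinery, from a list chosen with earlier results of these data known, are given here for the same classes. Of 15 elongation factor and related genes whose messenger RNAs carry a terminal oligopyrimidine tract, 9 had at least 500 UMIs, and 6 of them passed 0.3 while 0 passed -0.3, where 19.3% and 6.12% of all tested genes did. The median of these 9 was 0.43, beside 0.28 over the members, and the difference between these medians was not tested. Eif3f had the largest log2 ratio, 0.58 (0.30 to 0.89). Eef1a1, which delivers aminoacyl-tRNA, had 2848 and 3880 CPM, a log2 ratio of 0.45, and Eef2, which drives translocation, had 0.44. Tpt1, with 0.07, and Naca, with 0.14, were among those that did not pass. Fau, a ribosomal protein gene whose symbol lies outside the rule, had 0.35. The summed UMIs of 29 ribosome biogenesis genes were 0.169% and 0.175% of the total, and those of 78 mitochondrial ribosomal protein genes 0.437% and 0.444%, and 0 genes of either list reached 500 UMIs in these cells. In fibroblast-like cells 1 of 9 tested genes of the elongation factor list passed 0.3, Eef2 with 0.37, and the median was 0.17, with 13.6% of all tested genes past 0.3. In macrophage-like, T-like, B-like and dendritic-like cells 0 of 15, 13, 13 and 14 passed in either direction, where the backgrounds above 0.3 were 4.23%, 4.83%, 4.06% and 4.35%. Of the ribosome biogenesis list, 1 of 4 tested genes passed 0.3 in T-like cells and 1 of 4 in B-like cells, and 0 of 6 in macrophage-like and 0 of 5 in dendritic-like cells. The gene was Nop10, a component of the particles that modify ribosomal RNA, with 0.35 in T-like and 0.32 in B-like cells.

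In fibroblast-like cells, 13 of 77 tested members passed 0.3 and 0 passed -0.3, where 13.6% of all 580 tested genes passed 0.3 and 8.97% passed -0.3. The median was 0.18 over the members and 0.06 over all tested genes, while the share of members past 0.3 was close to the background. Rpl22l1, a paralog of Rpl22, had the largest log2 ratio, 0.45 (0.12 to 0.81), from 81 UMIs in Sham and 688 in TBI, or 303 and 417 CPM. Rpl37 had 909 and 1202 CPM, a log2 ratio of 0.40 (0.21 to 0.60), and Rps7 had 696 and 918 CPM, also 0.40 (0.18 to 0.63). Rplp1 of the P stalk had the smallest, -0.19 (-0.33 to -0.04), from 1707 and 1498 CPM, followed by Rpl36al with -0.19 (-0.53 to 0.19) and Rpl10, a late-joining large-subunit protein, with -0.16 (-0.33 to 0.02). With every cell weighted equally, 5 members passed 0.3 and 15 passed -0.3, and Rps7 had -0.12. Over all 580 tested genes, 19.0% passed 0.3 and 15.9% passed -0.3 with this weighting. Scaled to ribosomal protein UMIs, 0 members passed 0.3 and 4 passed -0.3, where 4.31% and 22.2% of all tested genes did. In fibroblast-like cells with under 1% Malat1 and Neat1, 8 of 54 tested members passed 0.3 and 6 passed -0.3, so the one-sided count was not kept there. Over all 167 tested genes in those cells, 29.9% passed 0.3 and 13.2% passed -0.3. Macrophage markers gave 0.0075% of the UMIs of Sham fibroblast-like cells and 0.132% of those of TBI fibroblast-like cells, all 18 markers were higher in TBI, and 11 of them were at 0 in Sham. In the cells with under 0.1% of immune marker UMIs, 4 of 70 tested members passed 0.3 and 2 passed -0.3, and the difference in share was 0.29 points. Over all 475 tested genes in those cells, 13.3% passed 0.3 and 8.63% passed -0.3.

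In the 4 main immune classes, macrophage-like, T-like, B-like and dendritic-like cells, few members passed 0.3 in size. Those that did were lower in TBI, in numbers close to or below the background, so the counts give no direction for the members as a group. Macrophage-like cells had 0 of 80 above and 3 below, against a background of 4.23% above and 3.56% below over all 1349 tested genes. T-like cells had 0 of 79 above and 2 below (background 4.83% and 2.97%), and dendritic-like cells 0 of 80 above and 1 below (4.35% and 4.2%). B-like cells had 0 of 79 on either side (4.06% and 4.06%). The median log2 ratios over the members were -0.04 in macrophage-like, -0.02 in T-like, 0.01 in B-like and 0.01 in dendritic-like cells. The macrophage-like count was 1 with predicted doublets left out and 1 in cells with at least 1000 UMIs. Of all tested genes, 3.88% and 4.14% passed -0.3 under these settings.

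A small number of genes recurred at the ends of the order in these classes, which share the same 2 libraries. Rps18, a small-subunit protein that contacts the large subunit, stood at 1331 CPM in the Sham and 1054 CPM in the TBI macrophage-like cells, with a log2 ratio of -0.34 (-0.42 to -0.26). Its log2 ratio was -0.31 (-0.39 to -0.23) in T-like cells and -0.29 (-0.37 to -0.22) in dendritic-like cells. In B-like cells it was -0.10 (-0.20 to -0.0035). The lowest value of Rps18 was in choroid plexus-like cells, -0.70 (-0.96 to -0.44), from 204 and 297 UMIs. In fibroblast-like cells it was -0.02 and in endothelial-like cells 0.21, so the gene lay below 0 in the immune classes named here and not in endothelial-like cells.

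Rps23, a small-subunit protein of the decoding centre, had a log2 ratio of -0.30 (-0.37 to -0.24) in macrophage-like, -0.31 (-0.39 to -0.24) in T-like, -0.31 (-0.38 to -0.24) in dendritic-like and -0.17 (-0.27 to -0.07) in B-like cells. It was -0.43 in plasmacytoid dendritic-like and -0.35 in NK-like cells. Its levels in dendritic-like cells were 2784 CPM in Sham and 2244 in TBI. Rps6 had -0.31 (-0.41 to -0.21) in macrophage-like cells. Rpl37a had -0.21 (-0.27 to -0.15) in T-like cells. In B-like cells the lowest were Rps9 with -0.27 (-0.34 to -0.20), Rpl4 with -0.22 (-0.36 to -0.075) and Rps19 with -0.19 (-0.26 to -0.12).

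At the other end, Rpl38, a large-subunit protein known for its part in the translation of Hox messenger RNAs, was the highest member in each of these 4 classes. Its log2 ratio was 0.15 (0.090 to 0.22) in macrophage-like, 0.21 (0.15 to 0.28) in T-like, 0.29 (0.20 to 0.37) in B-like and 0.19 (0.13 to 0.25) in dendritic-like cells. The levels in B-like cells were 2165 CPM in Sham and 2638 in TBI. Rpl37 had 0.12 and 0.18 in macrophage-like and dendritic-like cells, and Rpl6 had 0.11 and 0.18. None of these values reached 0.3. In T-like cells Rps15 had 0.18 and Rpl31 0.15, and in B-like cells Rpl5, which binds the 5S ribosomal RNA, had 0.26 and Rps15 0.22. The rule that would have named a member with 1 direction in all 6 main classes and a size of 0.3 in at least 3 of them named none.

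Promoters of the genes at both ends were read from RefSeq to show whether the start regions differ in the pyrimidine run for which these genes are known. Each line gives 60 bases before and 20 bases from the annotated start, 5′ to 3′ on the gene's strand, in the GRCm38.p6 build, with the longest run of C and T that touches the stretch from 10 before to 14 after the start in capitals. Where runs were equally long, the first is in capitals, as in Rps7, whose window holds other runs of the same length. The windows lie at chr17:33955646-33955725 for Rps18 (minus strand), chr13:90923062-90923141 for Rps23 (plus), chr11:114668520-114668599 for Rpl38 (plus), chr15:5116553-5116632 for Rpl37 (plus), chr12:28635934-28636013 for Rps7 (minus) and chr3:28805448-28805527 for Rpl22l1 (plus). Rps18 and Rpl38 were shown because they were the lowest and the highest member in macrophage-like cells, Rps23 and Rpl37 because they were the lowest and the second highest in dendritic-like cells, and Rps7 and Rpl22l1 for their ratios in endothelial-like and fibroblast-like cells.
Rps18: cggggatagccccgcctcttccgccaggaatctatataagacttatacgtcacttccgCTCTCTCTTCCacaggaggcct
Rps23: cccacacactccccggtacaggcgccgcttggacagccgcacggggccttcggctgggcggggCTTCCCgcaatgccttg
Rpl38: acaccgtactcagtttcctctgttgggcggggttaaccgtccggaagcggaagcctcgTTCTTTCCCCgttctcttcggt
Rpl37: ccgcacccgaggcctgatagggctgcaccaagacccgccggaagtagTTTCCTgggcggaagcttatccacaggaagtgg
Rps7: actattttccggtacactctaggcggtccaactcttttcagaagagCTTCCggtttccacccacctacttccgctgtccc
Rpl22l1: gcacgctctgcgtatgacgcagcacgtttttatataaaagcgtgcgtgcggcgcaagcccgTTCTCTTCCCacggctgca

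Rps18 and Rpl38, at opposite ends of the order, both had a pyrimidine run that holds the annotated start, of 11 and 10 bases. In the Rps23, Rpl37, Rps7 and Rpl22l1 windows the capitals lie to one side of the start, which depends on where RefSeq places it. Over the 64 members with a promoter entry, 26.6% had a run of at least 8 pyrimidines that holds the start base, against 4.59% of the 27025 genes with an entry. The start base itself was C in 32.8% and 18.9%. Within 250 bases before to 50 after the start, on either strand, the letters CCGGAAG, the core of sites for ETS factors, occurred in 40.6% of members and 9.93% of all genes. AAGATGGC, the core of YY1 sites, occurred in 9.38% and 3.19%, and TATAAA in 10.9% and 15.7%. CCGGAAG and AAGATGGC can overlap by 3 letters. Among the genes printed, CCGGAAG was found near the starts of Rps18, Rpl37, Rpl38 and Rps7, and TATAAA near that of Rpl22l1. In Rps7 the capitals are part of CCGGAAG read on the other strand, and the run that holds the start base has 3 pyrimidines.

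The 84 genes lie apart in the genome, on 19 chromosomes with 4 on the X chromosome. In GENCODE vM21 (GRCm38), Rps18 lies at chr17:33951999-33956001, Rps23 at chr13:90922958-90924950, Rpl38 at chr11:114668524-114672331 and Rps3a1 at chr3:86137940-86142702. Ribosomal protein genes have many near-identical pseudogenes, and a read that fits several genes of the counted annotation is not counted for any. In 48 members some 90-base stretch of the last 300 bases of the transcript occurred in another annotated gene, and in 28 at least 50% of such stretches did. This share was 55.5% for Rps18, 58.8% for Rpl38, 80.1% for Rps6 and 54.5% for Rpl22l1, whose levels may therefore be undercounted. It was 0 for Rps23, Rpl37, Rps7, Rps27l and Rpl31. Members with a share of 100% were still counted, with mean CPM of 2389.5 (Rpl10), 1020 (Rpl36a), 2014 (Rps12) and 2593.5 (Rps27). Whether the other genes with these stretches were in the counted annotation was not tested. Across 80 genes the Spearman correlation of the shared-stretch percentage with the mean log2 ratio of the 4 immune classes was 0.010. With mean CPM it was -0.16. The correlation of transcript length with the immune mean ratio was -0.0054, and with the endothelial-like log2 ratio it was 0.28 across 76 genes. All are descriptions across genes.

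The macrophage-like cells held 3 clusters whose ribosomal protein shares differed in direction between the libraries. The cluster led by Folr2, Cd209f and Fcrls had 12.3% in Sham (117 cells) and 13.6% in TBI (320 cells), and 9 of 80 tested members passed 0.3, with a median log2 ratio of 0.17. In this cluster 6.64% of all tested genes passed 0.3. The cluster led by Slamf9, Cx3cr1 and Klra2 had 18.5% (108 cells) and 17.5% (261 cells), with 4 of 80 members past -0.3 and 4.36% of all tested genes. The cluster led by Ccl8, Cd209g and Cbr2 had 21.0% (109 cells) and 19.1% (140 cells), with 11 of 57 members past -0.3. Over all 96 tested genes, the 57 members included, 15.6% passed -0.3. The cells of the Ccl8 cluster were shallow, with a median of 824 and 981 UMIs, against 4405 and 4817 in the Folr2 cluster. The difference over all macrophage-like cells therefore combines clusters of opposite sign, and the proportions of the clusters differed between the libraries.

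Among the other classes, plasmacytoid dendritic-like cells had the lowest median log2 ratio over the members, -0.19, and 9 of 69 tested members passed -0.3. Over all 138 tested genes, the 69 members included, 7.25% passed 0.3 and 8.7% passed -0.3. These values rest on 20 Sham and 45 TBI cells. Choroid plexus-like cells had 8 of 73 members past -0.3, among them Rps18, Rps9 with -0.51 and Rpl17 with -0.42, against 7.03% above and 10.5% below over all tested genes. Immature B-like cells had 3 of 73 past -0.3 (background 5.49% above and 4.27% below), proliferating-like cells 5 of 70 (15.3% and 16.6%), and monocyte-like cells 3 of 62 (4.03% and 9.68%), each with 0 past 0.3. Migratory dendritic-like cells had 0 of 63 on either side (6.3% and 7.87%), and pineal gland-like cells 4 of 30 above and 5 below (35.8% and 19.4%). In NK-like cells Rpl7a passed 0.3 with 0.35 and Rps23 passed -0.3, and the backgrounds were 6.38% and 5.32%.

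The P stalk genes, Rpsa and Rps27a are set apart by their structure or by a second function. In endothelial-like cells Rplp0 had a log2 ratio of 0.35, Rplp1 of 0.28, Rplp2 of 0.16, Rpsa of 0.34 and Rps27a of 0.34, so Rplp2 was the lowest of these. In fibroblast-like cells Rps27a had 0.32, Rpsa 0.18, Rplp0 0.10 and Rplp2 0.09, against -0.19 for Rplp1. In macrophage-like cells Rplp1 had -0.18 (-0.22 to -0.13), and in dendritic-like cells it had 0.12 (0.07 to 0.17), the opposite direction, while Rplp0 had -0.07 and -0.05 there. The stalk genes thus did not keep a common ratio within a class.

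The mixture of ribosomal protein messenger RNAs was similar but not equal from class to class. Rps24, Rpl41, Rpl13 and Rps4x were among the most abundant members over all cells. Rps24 had 5514 CPM in Sham and 4612 in TBI, the highest level, counted as molecules by their 3′ ends and so not divided by length. Its log2 ratio was 0.27 in endothelial-like and 0.29 in fibroblast-like cells and between -0.02 and 0.02 in the 4 immune main classes. That of Rps4x, encoded on the X chromosome, was 0.47 and 0.36, and between 0.02 and 0.08 in the immune classes. Rpl13 had 0.45 in endothelial-like and 0.15 in fibroblast-like cells, and Rpl41 0.26 and 0.31. Across the 14 classes with at least 20000 ribosomal protein UMIs, the share of a gene among these UMIs had a median range of 0.67 on the log2 scale between the lowest and the highest class. The range was at least 2-fold for 18 of the 81 members with at least 500 UMIs over all cells, with Rps29 at 2.06-fold just inside. In 64 to 76 of the 81 genes, depending on the class, a gene's share lay on the same side of its mean over classes in the Sham and in the TBI library.

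Rps27l, a paralog of Rps27 and a known target of p53, had the widest range, 11.1-fold, from 0.049% of ribosomal protein UMIs in T-like cells to 0.543% in migratory dendritic-like cells. Rpl22l1 followed with 6.74-fold, from 0.0889% in migratory dendritic-like to 0.600% in fibroblast-like cells. Rpl31, a protein at the rim of the exit tunnel, had 0.909% in plasmacytoid dendritic-like cells, 0.885% in Sham and 0.924% in TBI, and 0.197% in migratory dendritic-like cells, a range of 4.61-fold. With both libraries summed, Rpl31 exceeded 0.424%, the value in choroid plexus-like cells, in no other of the 14 classes. In fibroblast-like cells it had 0.520% in Sham, from 84 UMIs, and 0.358% in TBI. Rpsa, the laminin receptor precursor, had 3.92% in migratory dendritic-like and 0.933% in choroid plexus-like cells.

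Rpl41, the smallest ribosomal protein, gave 7.31% of the ribosomal protein UMIs of choroid plexus-like cells, 4.66% in pineal gland-like, 3.92% in fibroblast-like and 2.18% in T-like cells. In choroid plexus-like cells its share was 7.06% in Sham and 7.42% in TBI. These class differences were therefore present in each library on its own. The P stalk genes also varied, with Rplp1 at 2.29% in fibroblast-like and 0.989% in immature B-like cells. Rplp0 was at 2.03% in proliferating-like and 1.11% in choroid plexus-like cells. The gene with the narrowest range varied by 0.26 on the log2 scale.

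The paralogs were compared with their parent genes, since the 2 copies of a pair can fill the same position in the ribosome. Of the Rpl22l1 and Rpl22 UMIs, Rpl22l1 gave 44.3% in Sham (interval 36.9% to 51.8%) and 46.5% in TBI (44.0% to 49.1%) in fibroblast-like cells, and 45.0% and 42.2% in choroid plexus-like cells. In dendritic-like cells it gave 14.7% (13.5% to 15.9%) and 11.5% (10.5% to 12.5%), in macrophage-like cells 16.4% and 15.1%, and in migratory dendritic-like cells 8.53% and 10.8%. Fibroblast-like and choroid plexus-like cells thus lay above the immune classes in both libraries, with intervals that did not overlap those of the macrophage-like or dendritic-like cells. T-like cells, in which Rpl22 is known to be needed for development, had 24.6% and 23.7%.

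Rps27l gave 28.7% and 31.8% of the Rps27l and Rps27 UMIs in choroid plexus-like cells, and 28.3% and 20.9% in migratory dendritic-like cells. It gave 2.47% and 2.76% in T-like, 2.69% and 2.86% in B-like and 11.7% and 11.7% in macrophage-like cells. All of the 90-base stretches of Rps27 occurred in another gene, so the parent may be undercounted in every class. Rpl36al gave 25.8% and 32% of its pair with Rpl36a in endothelial-like cells and 59.2% and 51.1% in monocyte-like cells. All of the 90-base stretches of Rpl36a and 63.0% of those of Rpl36al occurred in another gene, as did 68.7% of those of Rpl7, so these pairs may be undercounted as well. Rpl7l1, a factor of large-subunit maturation in spite of its name, gave between 2.67% and 8.93% of its pair with Rpl7 in the 14 classes. The 8.93% was that of Sham pineal gland-like cells, from 5 Rpl7l1 and 51 Rpl7 UMIs, against 14 and 230 in TBI. The remaining paralogs, known for expression in testis or muscle, were close to the limit of detection. Rpl39l had 6 UMIs in Sham and 17 in TBI over all cells, Rpl3l had 4 and 7, and Rpl10l had 0 and 0, which at 3 counts allows up to 0.381 CPM in Sham and 0.215 CPM in TBI.

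**Figure D4:**
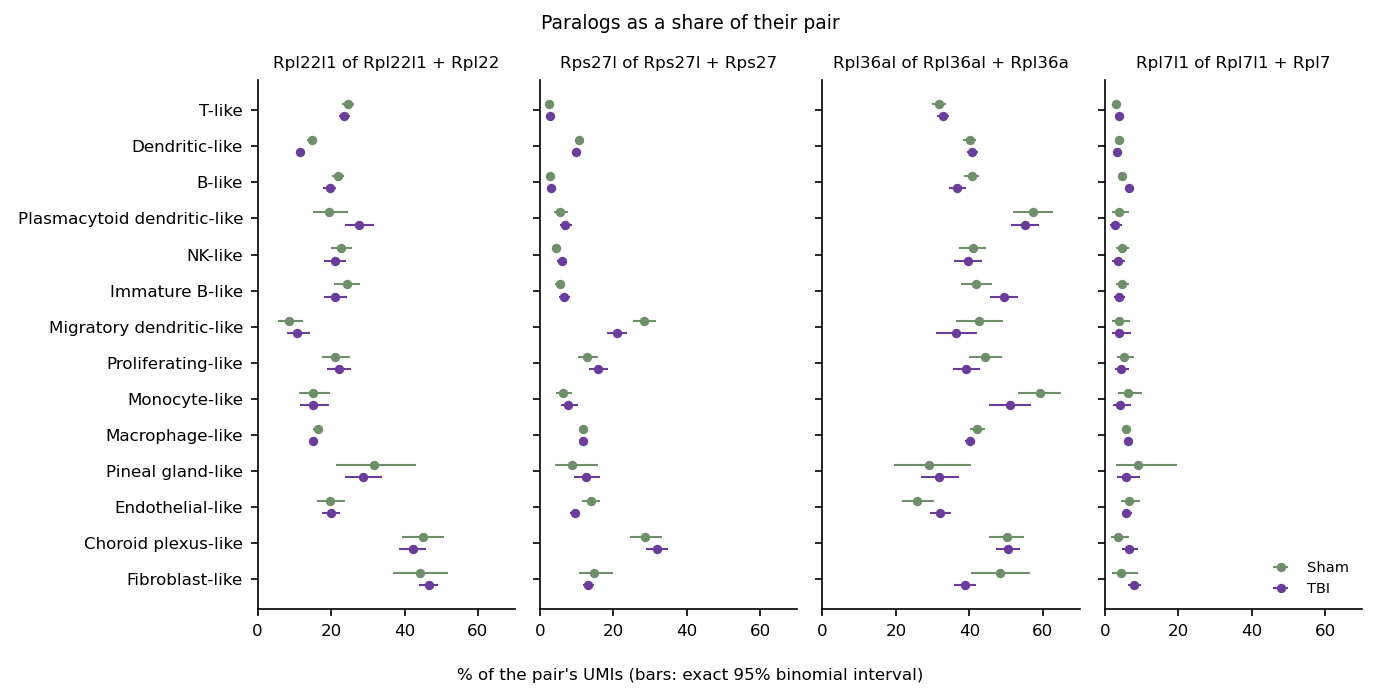
UMIs of 4 paralogs as a percentage of the UMIs of the paralog and its parent gene (horizontal axes) in 14 cell classes, for Sham and TBI; bars are exact 95% binomial intervals. Rpl22l1 is highest in fibroblast-like (44.3% and 46.5%) and choroid plexus-like cells, and Rps27l in choroid plexus-like and migratory dendritic-like cells.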

How the data were processed

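The data were 2 single-cell RNA-seq libraries (10x 3′ v2 chemistry), 1 of Sham and 1 of TBI meninges, each from 5 pooled mice. The authors deposited raw UMI counts, by gene and cell barcode, without normalization. The methods state alignment to mm10 with Cell Ranger, whose version differs between the sources (the submitters' processing notes give 2.1.1, the matrix headers 3.1.0 and the methods an earlier version than both), and no source used here names the annotation release. Cell Ranger drops reads that map to several genes, which can lower counts of members with near-identical copies in the annotation it used.

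The limits of the methods were applied (150 to 5000 genes, 20% mitochondrial and 5% hemoglobin UMIs). The matrices held more barcodes than the methods describe as collected, and the limits left slightly fewer cells than those stated there. Cells were clustered with scanpy 1.11.5 and leidenalg 0.10.2 on 2000 variable genes with the members removed, 20 principal components, 20 neighbours and a resolution of 0.8. When members were allowed, 0 of them were among the variable genes. A cluster was named from at least 3 of its class's markers among its 50 leading genes. Simulated doublets marked 33 Sham and 114 TBI cells, which were left in.

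UMIs were summed per class and library. Shares carry exact (Clopper-Pearson) 95% intervals, and log2 ratios of CPM were computed with 0.5 added to each sum and an exact conditional binomial interval. No test between groups was possible with 1 library each, so a log2 ratio of 0.3 in size stood in for a call. It was applied to genes that reached 500 UMIs in their class over both libraries. The same rule over all genes, the members included, gave the background. A count of 0 was read as a limit of 3 counts. The ratio code was tested on simulated data.

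Genes were named by rule: the 5 most abundant members, the 3 highest and 3 lowest ratios in each of the 6 main classes, members of 1 direction in all 6 main classes, the 8 widest ranges across classes, paralogs with their parents, and the P stalk, Rpsa and Rps27a; list genes past 0.3 served as examples. Other genes were named after their values were seen. Some members that these rules select are not reported here. The members, lists and classes were chosen with earlier results of these data known. Positions came from GENCODE vM21, and promoter sequences from RefSeq (GRCm38.p6), which matched 64 of the 84 members. Alternatives varied the averaging, depth, doublets, denominator, clustering, class assignment, UMI minimum, fold, scaling and added count. The cells with under 1% Malat1 and Neat1 or under 0.1% immune marker UMIs were chosen after seeing the data.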

Additional observations from a re-analysis of the deposited data

Results flagged for a closer look

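The ribosomal protein share had opposite directions in the main classes. The log2 ratio of the share, TBI over Sham, was 0.31 in endothelial-like and 0.17 in fibroblast-like cells, and -0.054 in macrophage-like and -0.025 in T-like cells. With every cell weighted equally the fibroblast-like and T-like directions turned, to -0.36 and 2.02 percentage points. The difference between the classes was not tested, since each group had 1 library. Within macrophage-like cells the log2 ratio was 0.15 in the cluster led by Folr2, -0.083 in that led by Slamf9 and -0.14 in that led by Ccl8, which was likewise not tested. Barcodes removed by the hemoglobin limit alone, which no comparison used, had a ribosomal protein share of 4.58% in TBI against 3.20% in Sham.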

How the results depend on the processing

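No paired analysis was possible because the 2 groups share 1 replicate number and have 1 library each, and leaving out a replicate would leave a group empty. Differences in share are in percentage points, TBI minus Sham, and counts are of members past the fold in either direction.

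With cells weighted equally, the differences were -1.41 (macrophage-like), -0.36 (fibroblast-like, reversed), 1.49 (endothelial-like), 2.02 (T-like, reversed), 0.69 (B-like) and -1.47 (dendritic-like), and the counts were 8 (macrophage-like), 20 (fibroblast-like), 1 (T-like), 1 (B-like) and 5 (dendritic-like) in place of 3, 13, 2, 0 and 1, with Rps7 in fibroblast-like cells at -0.12. Of all tested genes with this weighting, 12.2% passed 0.3 and 8.82% passed -0.3 in macrophage-like cells, and 19.0% and 15.9% in fibroblast-like cells. In T-like cells 18.2% and 6.32% did, in B-like cells 5.68% and 4.87%, and in dendritic-like cells 7.95% and 6.90%. Without predicted doublets the differences were -0.50, 0.52, 1.68, -0.093 (B-like, reversed) and 0.34 (dendritic-like), and the count was 1 in macrophage-like and 1 in B-like cells. Of all tested genes then, 4.11% passed 0.3 and 3.88% passed -0.3 in macrophage-like cells, and 3.29% and 3.29% in B-like cells. In cells with at least 1000 UMIs the differences were -0.47, 0.90, -1.07 (T-like) and -0.026 (B-like, reversed), with counts of 1 in macrophage-like and 20 in fibroblast-like cells. Of all tested genes in these cells, 4.07% passed 0.3 and 4.14% passed -0.3 in macrophage-like, and 16.6% and 9.03% in fibroblast-like cells. Assignment of cells by their own markers gave -0.18, 0.38, 1.34, -1.10, -0.76 (B-like, reversed) and -0.50. Members allowed in clustering gave -0.68 in macrophage-like cells. A resolution of 0.4 gave 0.24, 1.67 and -0.45 in fibroblast-like, endothelial-like and dendritic-like cells, and a resolution of 1.6 gave 1.55 in fibroblast-like cells. The denominator without mitochondrial, hemoglobin, immunoglobulin and nuclear RNA gave 0.85 in fibroblast-like cells. Cells with under 1% Malat1 and Neat1 gave -0.76, 0.43, 2.22, -1.53, 0.0039 and 0.10. Cells with under 0.1% immune marker UMIs gave 0.29 in fibroblast-like and 1.75 in endothelial-like cells, with a count of 6 in fibroblast-like cells. Of all tested genes in those fibroblast-like cells, 13.3% passed 0.3 and 8.63% passed -0.3.

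With the fold at 0.5 the counts were 0 in macrophage-like, 0 in fibroblast-like, 3 in endothelial-like, 0 in T-like and 0 in dendritic-like cells. Of all tested genes, 4.54% passed 0.5 and 1.81% passed -0.5 in endothelial-like cells, and 3.97% and 1.72% in fibroblast-like cells. The values were 0.890% and 0.815% in macrophage-like, 0.929% and 0.929% in T-like, and 1.35% and 0.750% in dendritic-like cells. With ratios scaled to ribosomal protein UMIs they were 0 in macrophage-like, 4 in fibroblast-like, all lower in TBI, 1 in endothelial-like and 0 in T-like cells. A minimum of 2000 UMIs gave 6 and 13 in fibroblast-like and endothelial-like cells, of 22 and 30 tested members, and a minimum of 100 gave 1 in B-like cells. At 2000 UMIs, 23.5% of all 98 tested genes in fibroblast-like and 23.6% of all 89 in endothelial-like cells passed 0.3. At 100 UMIs, 11.1% of all tested genes in B-like cells passed 0.3 and 12.4% passed -0.3. Scaling to ribosomal protein UMIs moved the median of all tested genes in endothelial-like cells from 0.08 to -0.23, a shift fixed by the ratio of the shares. The number of members with a 2-fold range and the paralog counts stayed within 1.5 times under the alternatives run for them. The endothelial-like difference kept its sign in all 10 alternatives, from 1.34 to 2.22, which use the same 2 libraries. Of these, the clustering with members allowed had 0 members among its variable genes. Outside these alternatives, endothelial-like cells with at least 3% Malat1 and Neat1 had 4.28% in Sham and 3.65% in TBI, the opposite direction. The dendritic-like difference, -0.011, had an interval that included 0, and its sign was positive in 5 of the alternatives (without doublets 0.34, at least 1000 UMIs 0.071, the other denominator 0.036, members allowed 0.046 and under 1% Malat1 and Neat1 0.10). The cause of the reversals was not tested.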
